A study of Zea mays with 54 samples.

Results

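The rf2 family of maize aldehyde dehydrogenases was followed in the L1 and the L2 of the vegetative shoot apical meristem (SAM). The L1 is the tunica, a single outer cell layer from which the epidermis forms, and the L2 of the labels is the corpus beneath it. Probes were taken as members where the array annotation gave 1 gene and RefSeq named that gene rf2 or rf2 followed by 1 letter. This gave 24 of the 49280 probes of 3 array designs, and 17 of the 24 had values. They stood for 4 of the 832 genes that a probe names in RefSeq: rf2 with 8 probes of which 4 had values, rf2b with 6 of 6, rf2c with 6 of 6, and rf2d with 1 of 4. The members were partly selected on measured values: rf2 and rf2c were chosen by the L1 to L2 contrast, since their L1 to L2 differences on slides 1 to 6, and that of rf2 on slides 7 to 12, stood out in these same data, and rf2b and rf2d came with them by name. The layer differences of all members are therefore given as descriptions, without p-values.

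L1 and L2 cells of the inbred line B73 were captured by laser from sections of 14-day-old seedlings, and RNA of 5 to 10 SAMs was pooled for a replicate. About 1 ng of RNA was amplified, and the L1 and the L2 of a replicate were hybridised together on a 2-colour cDNA slide. There were 18 slides, 6 of each array design (slides 1 to 6, 7 to 12 and 13 to 18), and every slide has readings named L, M and H, 3 in number. L1 carried Cy5 on even slides and Cy3 on odd slides. The labels number the RNA extracts, and numbers recur on all 3 designs, which was taken to mean that the designs share material. On slides 1 and 5 the L1 and L2 numbers differ, where slide 1 has the L2 number of slide 2, and slide 5 that of slide 6. Whether pools came from separate plantings is not stated. Errors below are limma standard errors over slides, with the dye term removed and each probe's spread drawn toward that of all probes. They can therefore be smaller or larger than a plain error from the spread between slides.

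Aldehyde dehydrogenases oxidise aldehydes to carboxylic acids with NAD or NADP. The maize gene rf2, also called rf2a, is known as a nuclear restorer of fertility: together with Rf1 it restores pollen to plants with the T type of cytoplasmic male sterility. It encodes a mitochondrial enzyme, as does rf2b, while rf2c and rf2d encode cytosolic relatives. In the RefSeq annotation rf2c and rf2d lie next to each other on the same chromosome, with 0 annotated genes between them. Cross-hybridisation among family members on spotted cDNA was not tested, and none of the sequences of the probes were used here.

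The values are log ratios of unstated base, so differences are given in log units. A step of 1 means 2-fold if the base is 2, and 2.72-fold if logarithms are natural. A negative difference means less transcript in L1 than in L2. That reading is likely but not stated. It was taken from marker genes of both layers. Of 15 probes of epidermal marker genes, 8 were called higher in L1 and 0 lower, led by the homeobox gene ocl4 at 2.12 and 2.65. A further ocl4 probe was at 0.18, not called. Of the 15, 2 lay below 0, the lowest a probe of ocl3 at -0.15, not called. Of 24 probes of knox meristem genes, 5 were called lower in L1, all of kn1 (its strongest probe was at -1.26, -1.72 and -1.56 on the 3 designs), and 3 of knox8 were called higher. If Cy3 were the numerator, every sign below would turn. The median difference of all probes was -0.00, -0.02 and 0.00 on the 3 designs. In captured layers, fewer cells that express a gene and less of its RNA per cell cannot be told apart.

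Across the family, 15 of the 17 member probes had a mean difference below 0, that is, less signal in L1, and 78 of their 102 slide values were below 0. Neither the probes nor the slide values are independent, since probes share slides and some clones were spotted on more than 1 design. The median of the 17 was -0.30, with a range of -1.42 (rf2) to 0.13 (rf2d). On slides 1 to 6 limma called 3 of the 12 member probes, all lower in L1, where it called 2.84% of all probes (1.34% lower and 1.5% higher in L1). It called 1 of 2 on slides 7 to 12, lower in L1, beside 1.43% of all probes (0.545% lower, 0.89% higher), and 0 of 3 on slides 13 to 18, beside 1.57% (0.554% lower, 1.02% higher). Since the rule rests on this contrast, these counts say nothing further about the family. A call here is an adjusted p under 0.05 over all probes of a design.

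**Figure D1:**
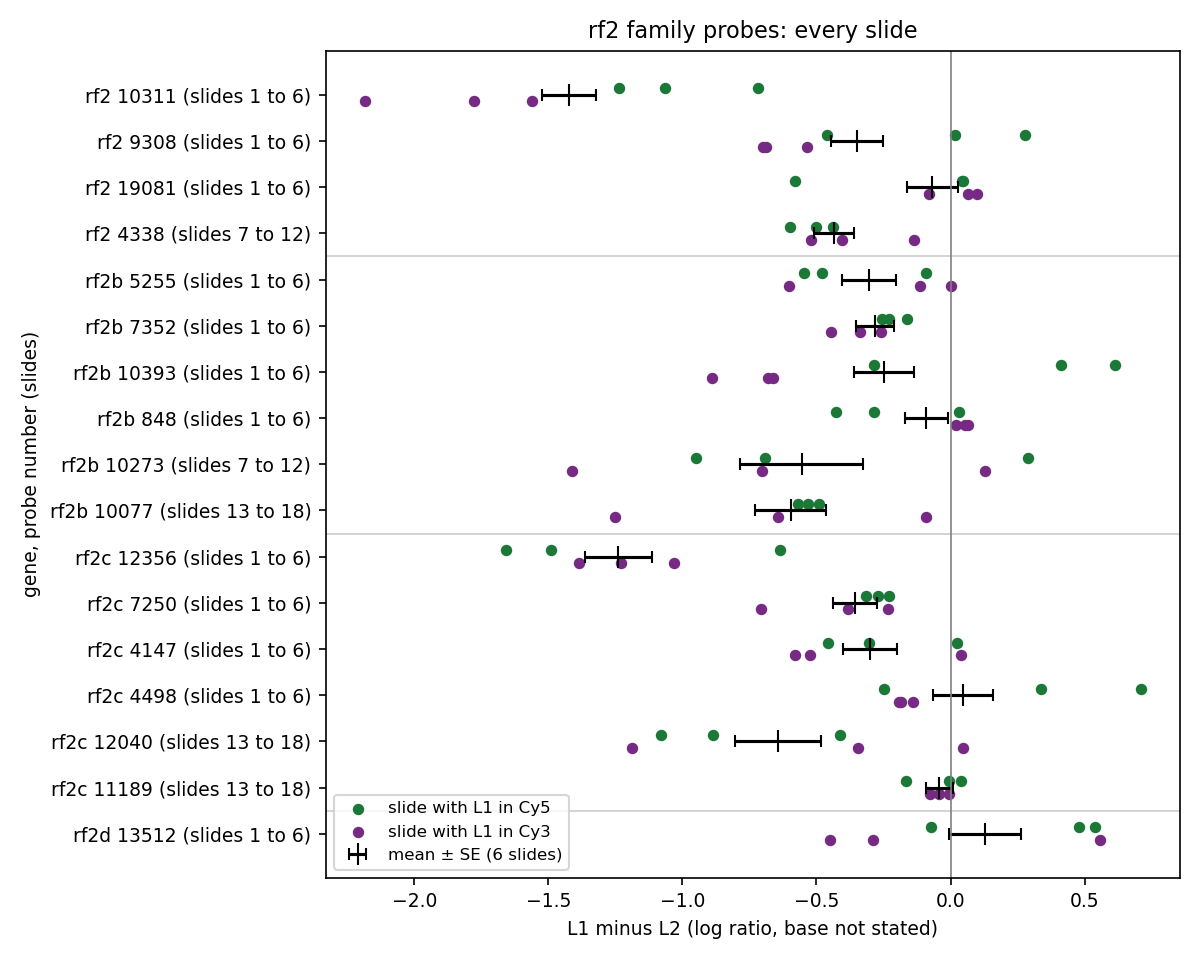
Each row is a member probe, with gene, probe number and slides, and the horizontal axis is L1 minus L2 in log units (base not stated). Green points are the 3 slides with L1 in Cy5, purple points the 3 with L1 in Cy3, and the black bar is the mean over 6 slides with its limma standard error. The top rf2 row, at -1.42, and the rf2c row at -1.24 lie apart from the other rows, and the rf2d row has 3 slides on either side of 0.

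rf2, the mitochondrial restorer gene, was lower in L1 on its strongest probe by more than any other member. Probe 10311 was at -0.72, -1.06 and -1.24 on slides 2, 4 and 6, with L1 in Cy5, and at -1.56, -1.78 and -2.18 on slides 1, 3 and 5, with L1 in Cy3. All 6 slides were below 0, and the slides of the 2 dye orientations did not overlap. The mean was -1.42 ± 0.10 (limma SE, n = 6 slides, SD over slides 0.526), 2.68-fold if the base is 2 and 4.15-fold if logarithms are natural. From the lowest difference up it was rank 6 of 14401 probes. Leaving out any one slide kept it between -1.50 and -1.34.

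The other rf2 probes did not show a difference of that size. Probe 9308 was at 0.02, -0.46 and 0.28 with L1 in Cy5 and at -0.54, -0.69 and -0.70 with L1 in Cy3, a mean of -0.35 ± 0.10, with 4 of 6 slides below 0. Its lowest slide, at -0.70, was above the highest slide of probe 10311. Probe 19081 lay within 0.10 of 0 on 5 slides and at -0.58 on slide 4, with a mean of -0.07 ± 0.10. Averaged over the 3 probes, rf2 was at -0.61 ± 0.09, with each of the 6 slides below 0, between -0.99 and -0.22. This was rank 8 from the lowest of 549 genes named on slides 1 to 6.

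On slides 7 to 12 a single rf2 probe had values, number 4338. It was at -0.50, -0.60 and -0.44 on slides 8, 10 and 12 and at -0.41, -0.14 and -0.52 on slides 7, 9 and 11. All 6 slides were below 0 and the dye orientations overlapped. Its mean was -0.43 ± 0.08, the narrowest spread among the called member probes (SD over slides 0.160). The call of this probe ended without any one of the 6 slides, while its mean stayed between -0.49 and -0.39. Both rf2 probes of slides 13 to 18 were without values.

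rf2c, a cytosolic member, had its largest difference on probe 12356. Its slide values were -0.63, -1.49 and -1.66 with L1 in Cy5 and -1.39, -1.03 and -1.23 with L1 in Cy3. All 6 were below 0, and the means of the dye orientations were close, at -1.26 for L1 in Cy5 and -1.22 for L1 in Cy3. The mean of -1.24 ± 0.125 was 2.36-fold for base 2 and 3.45-fold for natural logarithms, rank 11 of 14401. The call ended without slides 1 and 5 together, a fit of 4 slides.

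The other rf2c probes on slides 1 to 6 were nearer to 0. Probe 7250 was below 0 on all 6 slides, from -0.71 to -0.23, with a mean of -0.36 ± 0.08, and its call ended without any one slide. Probe 4147 was at -0.30 ± 0.10 with 4 of 6 slides below 0, and slides 5 and 6 at 0.04 and 0.02. Probe 4498 was at 0.05 ± 0.11, from -0.25 to 0.71. The 4 probes averaged -0.46 ± 0.07, with all 6 slides below 0 between -0.63 and -0.26. On slides 13 to 18, probe 11189 of the same gene was at -0.04 ± 0.05, within -0.16 to 0.04.

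rf2b, the second mitochondrial member, lay below 0 on each of its 6 probes, and 0 of them were called. On slides 1 to 6, probe 7352 was the most even, from -0.45 to -0.16 with all 6 slides below 0 and a mean of -0.28 ± 0.07. Probe 5255 was at -0.30 ± 0.10 with 5 of 6 slides below 0, and probe 848 at -0.09 ± 0.08 with 2 of 6. Probe 10393, at -0.25 ± 0.11, split by dye: it was at 0.41, 0.61 and -0.29 with L1 in Cy5 and at -0.89, -0.66 and -0.68 with L1 in Cy3. The 4 probes averaged -0.23 ± 0.08, with all 6 slides below 0.

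rf2d, the cytosolic neighbour of rf2c, did not stand clearly on either side of 0. Its 1 probe with values, number 13512, was at 0.54, -0.07 and 0.48 on slides 2, 4 and 6 and at 0.56, -0.29 and -0.45 on slides 1, 3 and 5. On 3 slides it was above 0 and on 3 below. The mean was 0.13 ± 0.13, smaller than the spread between slides (SD 0.453).

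Ordered by the gene means of slides 1 to 6, rf2 was lowest (-0.61), then rf2c (-0.46), rf2b (-0.23) and rf2d (0.13). The gaps were 0.15 between rf2c and rf2, 0.23 between rf2b and rf2c, and 0.36 between rf2d and rf2b. Each was smaller than the range of either gene of the pair over the 6 slides, but the genes share these slides. Slide by slide, rf2c was below rf2b on all 6. The mean of rf2 was below that of rf2c except on slides 2 and 6, and rf2b was below rf2d except on slides 3, 4 and 5. The order depends on which probes entered a mean, since the probes of rf2 ran from -1.42 to -0.07 and those of rf2c from -1.24 to 0.05. On the other designs the order was not the same. On slides 7 to 12 rf2b was at -0.56 and rf2 at -0.43. On slides 13 to 18 rf2b was at -0.60 and rf2c at -0.34. Differences between designs were not tested.

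A pair of cDNA clones, each recognised by its EST records, was spotted on more than 1 design and let the same target be read again. The rf2c clone of probe 12356 was also probe 12040 on slides 13 to 18, where it averaged -0.64 ± 0.16, against -1.24 ± 0.125 on slides 1 to 6. Of the 6 later slides, 5 were below 0, and slide 17 was at 0.05. For the extracts numbered 2, 3 and 4 in both layers, it read -0.41, -0.35 and -1.08 on slides 14, 15 and 16, and -0.63, -1.03 and -1.49 on slides 2, 3 and 4. Extract 4 was the lowest of the 3 in both sets, and each later reading was nearer to 0.

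The rf2b clone of probe 10393 was on all 3 designs, and read -0.56 ± 0.23 on slides 7 to 12, -0.60 ± 0.13 on slides 13 to 18 and -0.25 ± 0.11 on slides 1 to 6. On slides 13 to 18 all 6 slides were below 0, from -1.25 to -0.09. On slides 7 to 12 4 of 6 were, from -1.41 to 0.29. For extract 2 it read 0.41, 0.29 and -0.57 on slides 2, 8 and 14. Extract 3 gave -0.66, 0.13 and -0.65 on slides 3, 9 and 15, and extract 4 gave 0.61, -0.95 and -0.53 on slides 4, 10 and 16. Extract 1 gave -0.70 and -1.25 on slides 7 and 13, and extract 5 gave -0.69 and -0.09 on slides 12 and 17. For this clone, extracts 2, 3 and 4 thus gave both signs, up to 1.56 log units apart, and extracts 1 and 5 gave values below 0 only.

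**Figure D2:**
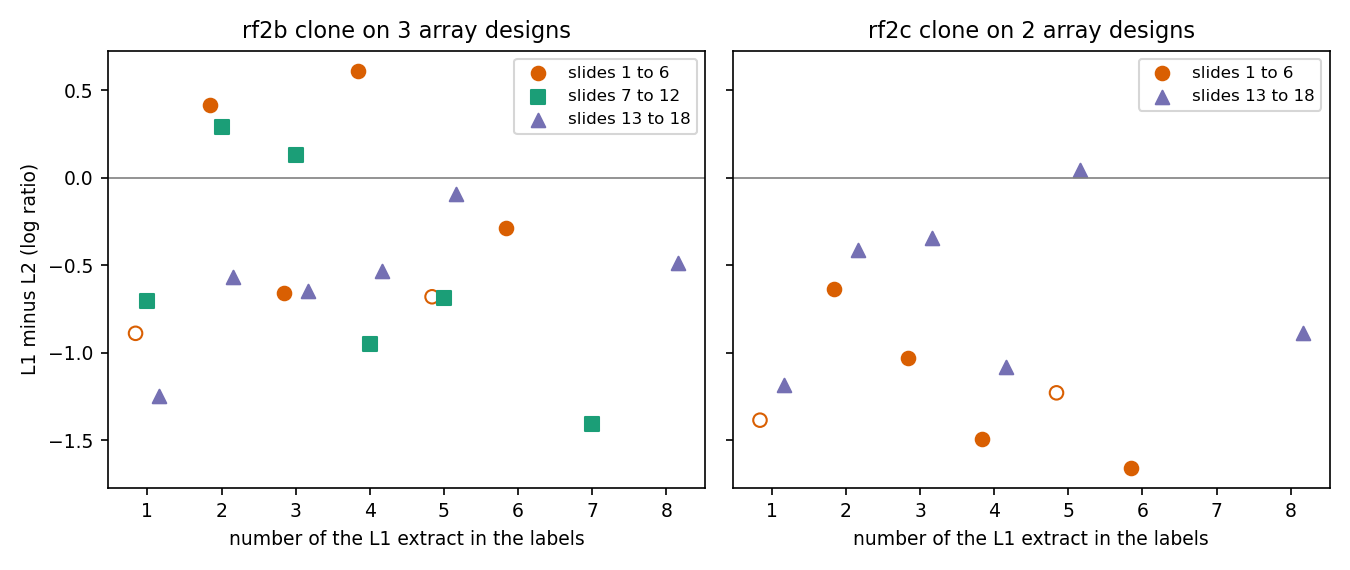
L1 minus L2 in log units on the vertical axis against the L1 extract number of the labels, for the rf2b clone (left panel) and the rf2c clone (right panel), 1 point per slide and 1 colour and marker per array design. Open points are slides 1 and 5, whose L1 and L2 numbers differ. The rf2c points of slides 1 to 6 all lie below -0.60, and those of slides 13 to 18 lie above them at every shared number.

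The dye term of the same fit is the distance of either dye orientation from the mean. Tests of both terms use the same spread of a probe, so those of rf2 and rf2c are not free of how these genes were chosen. The dye term was tested, and its estimate is independent of that of the layer difference. It was called on 1 of the 12 member probes on slides 1 to 6, where it was called on 2.88% of all probes, and on 0 of the 5 members of the other designs (0.0111% of all probes on slides 7 to 12 and 0% on slides 13 to 18). At an unadjusted p under 0.05 it was 3 of the 12 and 0 of the 5, beside 3633 of all 14401, 723 of 8991 and 951 of 14270 probes. The called probe was rf2b 10393, with a dye term of 0.49 ± 0.11 (limma adjusted p = 0.0472), a mean of 0.25 with L1 in Cy5 and of -0.74 with L1 in Cy3. For rf2 probe 10311 the term was 0.42 ± 0.10 (limma adjusted p = 0.0549), which did not pass, and the means were -1.01 and -1.84. The rf2c probe 12356 had a term of -0.02 ± 0.125 (limma adjusted p = 0.929). The rf2b clone was not called on the later designs, at 0.11 ± 0.23 and 0.07 ± 0.13 (limma adjusted p = 0.876 and 0.936).

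The L, M and H readings of a slide kept the sign of the mean for 16 of the 17 members when each was averaged over its 6 slides. The exception was rf2d, at -0.01, 0.09 and 0.30 in L, M and H. rf2 probe 10311 was at -1.58, -1.35 and -1.34, and below 0 in all 18 of its columns, as were rf2c probes 12356 and 7250 and rf2 probe 4338. rf2c probe 12356 was at -1.56 in L, -1.03 in M and -1.13 in H. The readings were farthest apart for the rf2b clone, with -0.21, -0.53 and -0.92 for slides 7 to 12 and -0.30, -0.87 and -0.62 for slides 13 to 18. The letters are not explained in the labels, and no common order of the readings ran through the members.

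**Figure D3:**
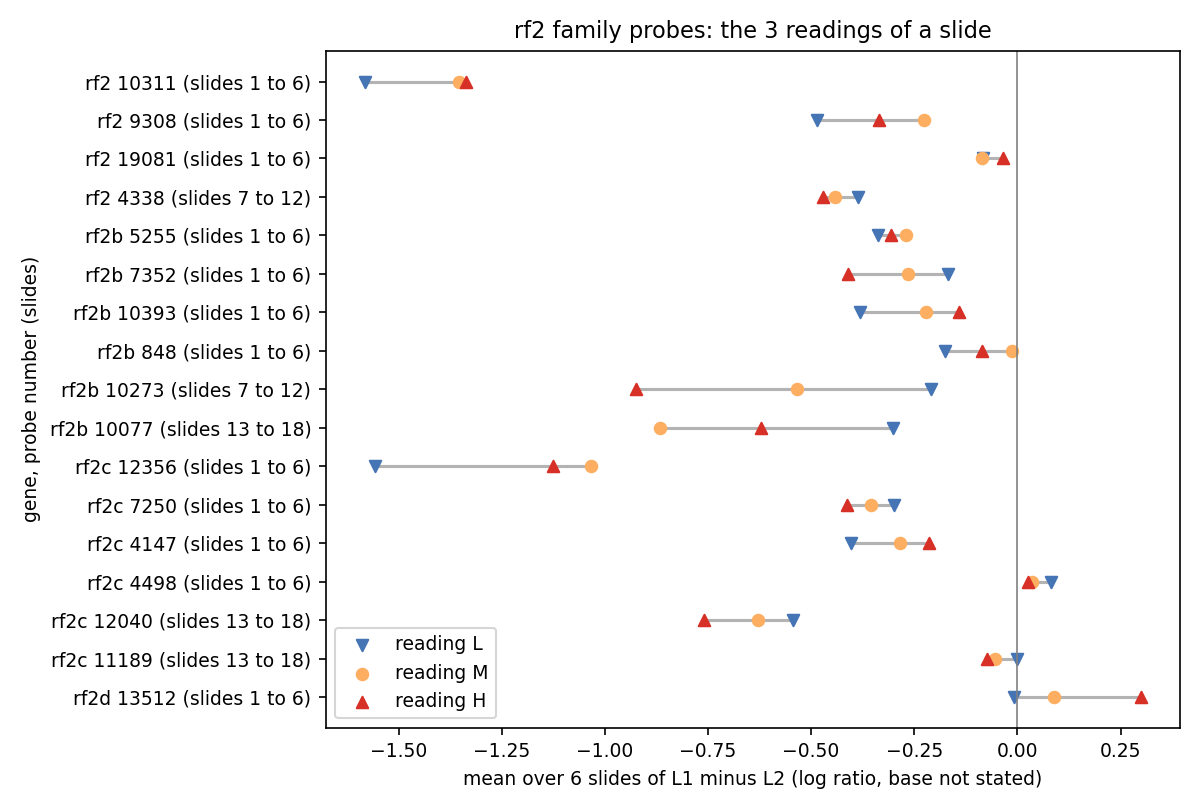
Each row is a member probe and the horizontal axis is the mean of L1 minus L2 over 6 slides in log units, separately for the readings L, M and H, joined by a grey line. For rf2 probe 10311 the 3 readings lie between -1.58 and -1.34, while those of the rf2b clone on slides 7 to 12 run from -0.92 to -0.21.

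Aldehyde dehydrogenases outside the family were close to 0 in these layers. Of such genes, 3 had 7 probes with values on slides 7 to 18: ALDH10A5 and AMADH1B, aminoaldehyde dehydrogenases, and gpn1, the non-phosphorylating glyceraldehyde-3-phosphate dehydrogenase. Limma called 0 of the 7 (adjusted p from 0.574 to 0.946, and 0 of 7 at an unadjusted p under 0.05), with differences from -0.14 (gpn1) to 0.11 (AMADH1B) and a median of -0.03. ALDH10A5 was at -0.02 and -0.04. The genes were found by symbol and synonym, with no descriptions to search, so others may have been missed. None of the 3 had values on slides 1 to 6, where rf2 and rf2c were farthest from 0, so they were not compared on the same slides.

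Of the list named fermentation and aldehyde supply, 0 probes passed the test. It held pyruvate decarboxylases (pdc1 to pdc3), which release acetaldehyde, the alcohol dehydrogenase adh1, and fdh1 (3 probes on slides 1 to 6, then 2 on slides 13 to 18). Of its 17 probes with values, 15 were below 0 and 0 were called in either direction by limma (10 had an unadjusted p under 0.05, beside 2133 of all 14401 probes for the first design and 1834 of all 14270 for the third), with a median of -0.19, where the medians of all probes were -0.00 and 0.00 on the 2 designs that held them. adh1 was between -0.28 and -0.23 on its 4 probes of slides 1 to 6 and between -0.29 and -0.18 on 3 probes of slides 13 to 18 (limma adjusted p from 0.0511 to 0.373). The 3 probes of pdc3 were at -0.22, -0.06 and -0.19, while pdc1 and pdc2 were at 0.08 and 0.16.

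In the phenylpropanoid and lignin list, 2 of 5 probes were called, both higher in L1 and both of ccr2, a cinnamoyl-CoA reductase. It was at 0.76 ± 0.09 for slides 1 to 6 and 0.59 ± 0.09 for slides 13 to 18 (limma adjusted p = 0.00124 and 0.0298, higher in 6 of 6 slides of each). The first call ended without slides 1 and 5 together (range over its alternatives 0.000684 to 0.0540), and the second without any one of slides 13 to 17 and with reading L alone (range 0.0213 to 0.198). In the fits that lost the second call the difference lay between 0.48 and 0.66. bm1, the cinnamyl alcohol dehydrogenase, was at -0.07 and pal1, a phenylalanine ammonia-lyase, at 0.06 and 0.21, not called. The median of the list was 0.21.

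Acetate is a product of aldehyde dehydrogenases, and of the 10 probes of the acetate and fatty acid list 1 was called. This was fad8, a plastid fatty acid desaturase, at 0.66 ± 0.07 on slides 13 to 18 (limma adjusted p = 0.00652, higher in 6 of 6 slides, range over its alternatives 0.00359 to 0.0435), whereas its probe on slides 7 to 12 was at -0.06. acc1, an acetyl-CoA carboxylase, was at -0.19 and -0.14, not called. gl8, which acts in the elongation of fatty acids for surface waxes, was at 0.52 and 0.35, not called (limma adjusted p = 0.159 and 0.0987, above 0 on 4 and 6 of 6 slides). The list's median was 0.01.

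A list of names set up for mitochondrial energy turned out to be mixed, so it does not describe the mitochondrion, where the rf2 and rf2b enzymes reside. Of its 71 probes of 13 names, 2 were called, both lower in L1 and both of mdh6 on slides 7 to 12, at -1.24 and -1.03 (limma adjusted p = 0.00811 and 0.0202). The second of these calls ended without slide 7, 9, 10 or 12, with reading H alone and with scaled columns (range over its alternatives 0.0115 to 0.109), and in those fits the difference lay between -1.08 and -0.92. The called gene mdh6 is known as the NADP-dependent malate dehydrogenase of the chloroplast. Of the other names, mdh4 is a cytosolic malate dehydrogenase by its synonym (7, 1 and 4 probes on the 3 designs), 1 pdh2 is a phosphogluconate dehydrogenase and cyc1 is a cyclin. The list's median was -0.02, mdh6 included, and its other probes ran from -0.24 to 0.22. From the fertility list only MFS18 had values: 1 of its 2 probes was called, higher in L1, at 0.91 ± 0.07 (limma adjusted p = 6.21e-05, higher in 6 of 6 slides, range over its alternatives 2.7e-05 to 0.0161), and the other was at -0.24.

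**Figure D4:**
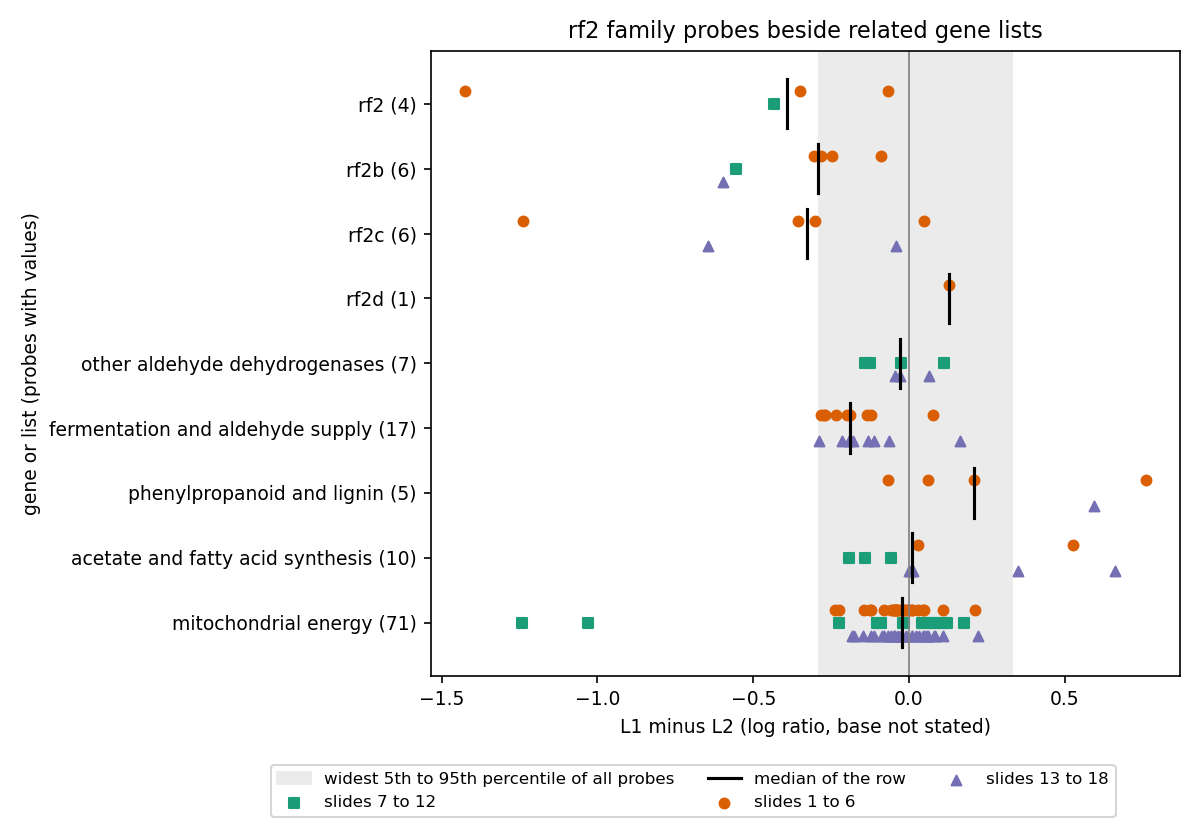
L1 minus L2 in log units for the probes of each rf2 family gene and of 5 lists, 1 point per probe, with markers for the array design, a black line at the median of the row and the number of probes in brackets. The grey band is the widest range of the 5th to 95th percentile of all probes over the designs (-0.29 to 0.33). The strongest rf2 and rf2c probes lie far below the band, and each rf2 family gene also has at least 1 probe within it. The other aldehyde dehydrogenases, between -0.14 and 0.11, lie within the band and had no values on slides 1 to 6.

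Named genes were also ranked by their root mean square distance to the strongest member probes over the 6 slides of a design, a measure that favours genes of a similar mean difference. For rf2 probe 10311 they were RR6, a cytokinin response regulator, AGP2, and the aquaporin PIP1-1, at distances of 0.505, 0.608 and 0.679 log units and with Pearson r of 0.312, -0.705 and 0.364. For rf2c probe 12356 they were AGP2, RR6 and the cystatin cc7, at 0.351, 0.381 and 0.462. On slides 13 to 18, AGP2 was the nearest gene to both the rf2c clone (0.396, r = 0.616) and the rf2b clone (0.361, r = 0.653). For rf2d they were the histone acetyltransferase hac106, the DNA methyltransferase met2 and pcna2, a replication clamp, at 0.166, 0.194 and 0.200, with r of 0.934, 0.938 and 0.896. These are descriptions over 6 slides that the genes share.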

How the data were processed

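Per the labels' protocols, amplified L1 and L2 RNA received Cy3 or Cy5 and was put on spotted cDNA slides, with dyes exchanged between odd and even replications. The deposited values are a score, read from the values as a log ratio of both channels, since they are signed and centred near 0. Base, numerator and normalization: not given in the sources used here. Values were taken as Cy5 over Cy3 and turned to L1 minus L2. As deposited, slides of like orientation had a median r of 0.451, 0.269 and 0.271 on the 3 designs, and opposite ones 0.026, -0.164 and -0.162. On slides 1 to 6 only 3 of 9 opposite pairs were below 0, and the direction there rests on the other designs and the markers.

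The 3 readings of a slide were averaged and each slide counted as 1 replicate. Values were present for 14401, 8991 and 14270 probes, and no probe had values in only part of its columns. For each design limma (version 3.58.1, R 4.3.3) fitted a layer and a dye term over all probes, with 4 residual degrees of freedom, and its two-sided tests were adjusted with the Benjamini-Hochberg method. The fit was also run on simulated data, with no outcome given here. For arrays, their number limits the precision.

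Names came from the array annotation, matched by gene number to RefSeq (Zm-B73-REFERENCE-NAM-5.0), used only for names and neighbours. A single gene in RefSeq was found for 3437 probes. The members, gene lists and the rule for named genes (all members, the other aldehyde dehydrogenases found by symbol or synonym, called list genes, and the 3 nearest genes to each member) were chosen with earlier results of these data known. Figures used Python 3.11.15 and matplotlib 3.10.9. Alternatives were each slide left out, single readings, the median of readings, no dye term, robust eBayes, scaled columns, 1 mean per gene, and on slides 1 to 6 the L2 number as a block and slides 1 and 5 left out.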

Additional observations from a re-analysis of the deposited data

Results flagged for a closer look

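On slides 1 to 6, rf2c probe 7250 had slide 5 at -0.71, far below the other 5 slides, which lay between -0.38 and -0.23. On the same slides, rf2 probe 19081 had slide 4 at -0.58, while its other slides lay between -0.08 and 0.10. Chance singles out about 1 in 20 groups in this way, and 17 were examined. The layer difference of rf2b probe 10393 differed between the dye orientations, with a mean of 0.25 with L1 in Cy5 and of -0.74 with L1 in Cy3. The dye term of the limma fit, the distance of either orientation from the mean, was 0.49 ± 0.11 (adjusted p = 0.0472). The difference was above 0 on 2 of 3 slides with L1 in Cy5 and below 0 on 3 of 3 with L1 in Cy3.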

How the results depend on the processing

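The 17 member differences were recomputed under 13 or 15 alternatives each, 245 values in all apart from gene means. 243 moved by less than 1 SD between slides, which takes in any dye difference, 2 by more, and 0 called differences changed sign. Uncalled differences near 0 did change sign. Without slide 4, rf2 probe 19081 was at 0.04 and rf2c probe 4498 at -0.06. For rf2d probe 13512 the difference was -0.03 without slide 1 and -0.01 with reading L alone. These are descriptions, since the members were chosen by this contrast. The calls of rf2c probe 7250 and rf2 probe 4338 ended in most alternatives, leaving 3 of 15 and 2 of 13. Leaving out single slides moved the number of called probes. For slides 1 to 6 it lay between 211 and 417, against 409 with all slides, and was over 1.5 times lower without slide 1, 2, 3 or 5 (241, 211, 217 and 242). For slides 7 to 12 the range was 38 to 65 against 129, for every slide. For slides 13 to 18 it was 88 to 231 against 224, and over 1.5 times lower without slide 13, 14, 15, 16 or 17 (92, 92, 88, 108 and 121). Each such fit has fewer slides. On slides 1 to 6, 577 probes were called with the L2 extract number as a random block, where the estimated correlation within blocks was negative (-0.207). On the same slides the number of called probes was 258 without a dye term, 261 with reading L alone and 78 without slides 1 and 5. On slides 7 to 12 it was 81 with scaled columns, 82 with reading L and 76 with reading H alone. On slides 13 to 18 it was 79 with reading L alone. With the median of readings the dye term was called on 0 probes in slides 7 to 12 (1 with the mean) and on 2 in slides 13 to 18 (0 with the mean). For these settings the cause was not tested. The alternatives of the called list genes were added after seeing the data.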
